A study of Mus musculus with 2 samples.

Results

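The neuregulins and the ErbB receptors form a ligand and receptor family of 8 genes, taken here by symbol from the 31040 genes of a single-nucleus count matrix of mouse prefrontal cortex. The ligands are Nrg1, Nrg2, Nrg3 and Nrg4, the receptors are Egfr, Erbb2, Erbb3 and Erbb4, and all 8 were found once. Wild-type C57BL/6 males aged 2 months received methamphetamine (METH) at 5 mg/kg or saline (Control) by intraperitoneal injection over 14 days. The PFC tissue of 3 mice was combined in each group, METH and Control, giving 1 droplet library per group. A number closing each barcode separates library 1 and library 2, but no label says which of them is METH. METH was therefore not compared with Control, and the matrix was read as 1 pooled sample without replicates, with a value for each library. Intervals below are exact 95% intervals of counting error. They do not include variation between mice, and nuclei were not treated as replicates.

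Neuregulins are growth factors of the EGF family. Most are made as membrane-anchored precursors, are cut by proteases at the cell surface and bind their receptors through an EGF-like domain held together by cysteines. Erbb3 and Erbb4 bind neuregulins directly, Erbb2 has no known ligand of its own and works as a partner, and Egfr binds other EGF family ligands. In cortex, neuregulin signalling to Erbb4 is best known from synapses between excitatory neurons and inhibitory interneurons, and signalling to Erbb3 from glia that make myelin.

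The sequences below show what sets the members apart at the contact between ligand and receptor and at the catalytic core. The first set holds the EGF-like core of 3 ligands, as mm10 coding sequence on the minus strand from the GENCODE transcripts, read 5′ to 3′. Capitals mark the 6 cysteine codons. Each core is joined here from 2 coding exons, at chr8:31837698-31849398 for Nrg1, chr14:38668261-39012054 for Nrg3 and chr9:55242177-55280969 for Nrg4.
Nrg1: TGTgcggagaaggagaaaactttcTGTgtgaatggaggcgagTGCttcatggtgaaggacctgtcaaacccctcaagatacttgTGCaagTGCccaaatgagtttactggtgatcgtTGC
Nrg3: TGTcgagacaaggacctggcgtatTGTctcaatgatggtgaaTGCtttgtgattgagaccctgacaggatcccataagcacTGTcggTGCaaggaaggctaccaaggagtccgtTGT
Nrg4: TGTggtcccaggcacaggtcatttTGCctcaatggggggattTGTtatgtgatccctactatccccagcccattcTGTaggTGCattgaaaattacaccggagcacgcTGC
The cores were 120, 117 and 111 bases long. The spacing of the cysteine codons differed at 1 place: 13 codons lay between the third and the fourth cysteine in Nrg1, 12 in Nrg3 and 10 in Nrg4. All 3 had 7 codons between the first and the second, 5 between the second and the third, 1 between the fourth and the fifth and 8 between the last pair.

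The second set is a stretch of 66 bases of the receptors' kinase domain, starting just before the codon of the lysine that holds ATP. It lies at chr11:16893050-16896902 (plus strand) for Egfr, chr11:98433441-98433900 (plus strand) for Erbb2, chr10:128572936-128573231 (minus strand) for Erbb3 and chr1:68199019-68250636 (minus strand) for Erbb4, each joined from 2 coding exons of mm10. Capitals mark codon 3, the lysine codon, and codon 20, which in an active kinase codes the glutamate of helix C that pairs with this lysine.
Egfr: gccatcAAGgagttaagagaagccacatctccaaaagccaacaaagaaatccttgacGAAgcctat
Erbb2: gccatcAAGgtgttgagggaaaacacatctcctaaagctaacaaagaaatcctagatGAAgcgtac
Erbb3: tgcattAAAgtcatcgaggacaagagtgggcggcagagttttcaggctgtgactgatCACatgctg
Erbb4: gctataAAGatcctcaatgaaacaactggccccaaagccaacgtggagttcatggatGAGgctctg
With bases counted from 1 at the 5′ end and Erbb4 given first, Erbb3 carried G58C and G60C, both in the helix C codon. Erbb3 has long been known as a receptor with little kinase activity. Of the 66 bases, 55 (83.3%) were identical between Egfr and Erbb2, 37 (56.1%) between Egfr and Erbb4, 38 (57.6%) between Erbb2 and Erbb4, and 29 (43.9%) between Erbb3 and Erbb4.

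Library 1 held 31273163 UMIs (unique molecular identifiers, counts of captured molecules) on 9890 barcodes and library 2 held 35292937 on 10876. After a minimum of 500 genes and removal of 1549 called doublets, 18002 nuclei remained, 8003 in library 1 and 9999 in library 2, with a median of 2978 UMIs. Clusters, made without the 8 members, were named from marker genes, so each name below means nuclei like that type by markers. Of these nuclei 1095 stayed unnamed. Groups of at least 100 nuclei made up 9 classes, divided into 21 types. The libraries shared 154 barcode sequences, 111 of them among kept nuclei. Markers of striatal projection neurons, the principal cells of the striatum, defined 1415 nuclei (7.86%), although the label gives prefrontal cortex alone. Summed markers of excitatory neurons reached 1233 CPM in their own class and 1387 in 58 nuclei named perivascular macrophages, which are not described further. No class of endothelial cells, pericytes or ependymal cells could be named. Levels are UMIs of a gene scaled to a total of 1000000 UMIs in the group (CPM). RNA outside nuclei adds neuronal transcripts to every group, and an upper limit for it was set per gene and group from the excitatory marker Slc17a7. This marker was not low outside excitatory neurons. It had 432 CPM in microglia, 381 in astrocytes and 354 in oligodendrocytes, beside 233 to 577 CPM in clusters of excitatory neurons. The term "free RNA limit" means this value.

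The members differed widely in abundance. Nrg3 held 298802 UMIs and ranked 8 among 23878 genes with a UMI, Nrg1 held 141511 (rank 23), Erbb4 60615 (rank 82) and Nrg2 6979 (rank 1540). Egfr held 699, Erbb3 546, Nrg4 517 and Erbb2 only 29. These counts are not levels per length: Nrg1, Nrg3 and Erbb4 are genes of 1069, 1104 and 1076 kb, whereas Erbb2 and Erbb3 span 25.2 and 22.1 kb, and nuclei hold much intronic RNA. Levels are therefore compared only between cell types within a gene.

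A class was called the clear highest for a gene where its CPM was at least 1.5 times that of the next class, the interval of that ratio excluded 1, it exceeded the free RNA limit and it ranked first in both libraries. Of 7 members with at least 50 UMIs, 3 had a clear highest class, beside 18.6% of the 15783 genes tested. They were Nrg2 in striatal projection neurons, Egfr in neuroblasts or dividing progenitors and Erbb4 in inhibitory neurons, classes that were the clear highest for 1.72%, 1.84% and 1.30% of all genes. With a fold of at least 1 in place of 1.5, 5 members had a clear highest class, beside 23.4% of all genes, and with at least 2 only Erbb4 had one, beside 13.2%. At the finer level of types, 0 of 7 members had a clear highest type, beside 15.9% of all genes. With a fold of at least 1, 4 members had one, beside 20.7%, and with at least 2 none had, beside 11.2%. With so few members, the counts say little about the family as a set.

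**Figure D1:**
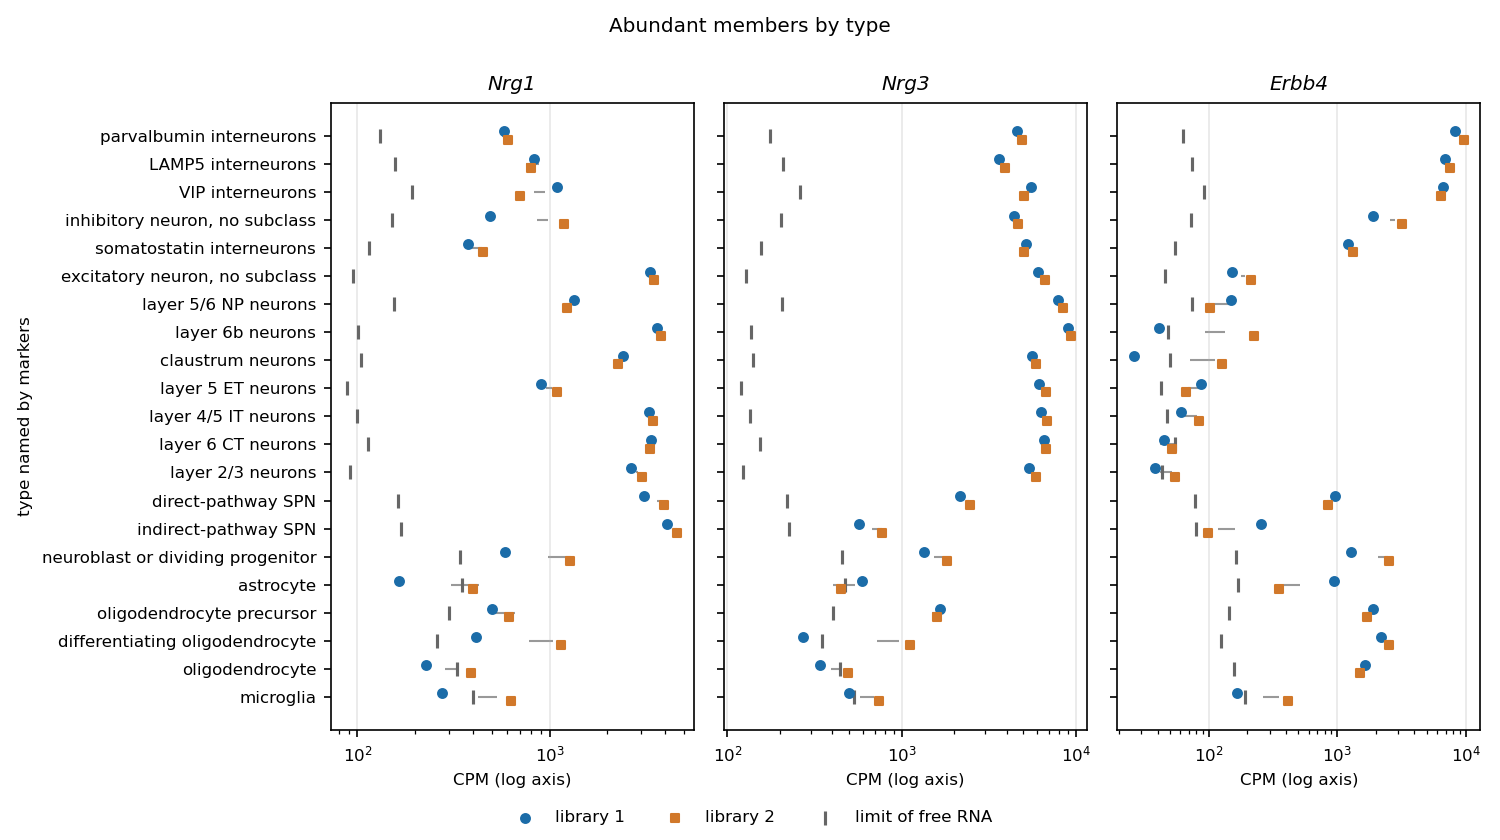
CPM (log axis) of Nrg1, Nrg3 and Erbb4 in 21 types; blue circles are library 1, orange squares library 2, grey lines the Poisson interval of both together and grey ticks the free RNA limit. Both ligands were high in most excitatory types, where Erbb4 of both libraries together stayed at 186 CPM or less, and Erbb4 was at 6521 CPM or more in parvalbumin, LAMP5 and VIP interneurons.

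Nrg3, a membrane-bound ligand for Erbb4, was the ligand with the widest spread over neurons. It reached 6380.4 CPM in excitatory neurons (6143 in library 1 and 6599 in library 2) and 4803 in inhibitory neurons (4759.9 and 4842), a ratio of 1.33 (1.31 to 1.34). Layer 6b neurons were highest at 9140.5 CPM (9029 and 9322), followed by layer 5/6 near-projecting neurons at 8193 (7888 and 8427) and layer 6 corticothalamic neurons at 6626 (6559 and 6694). In both libraries every value of layer 6b lay above those of the near-projecting neurons, and these lay above those of the corticothalamic neurons. Among interneurons, VIP nuclei had 5289 CPM, somatostatin nuclei 5116, parvalbumin nuclei 4769 and LAMP5 nuclei 3743.

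The lowest neuronal levels of Nrg3 were in the striatal projection neurons, and the 2 pathways differed. Direct-pathway neurons, which carry the Drd1 receptor, had 2386 CPM (2166 and 2474), and indirect-pathway neurons, which carry Drd2, had 725 CPM (566 and 776). Oligodendrocyte precursors had 1620.1 CPM (1669 and 1594), above their limit of 405. Oligodendrocytes had 415, beside a limit of 439.8 that was set from their own level, so they could not exceed it. Astrocytes had 469 CPM beside a limit of 473, which was scaled from the oligodendrocytes.

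Within interneuron types Nrg3 varied between second-step clusters. A cluster is described as led by genes that stand among its 10 leading genes. A VIP cluster led by Vip, Tac2 and Crh (144 nuclei) had 9469 CPM and another led by Vip, Igf1 and Ptprz1 (115 nuclei) had 3220.5, a ratio of 2.94 (2.71 to 3.19). A somatostatin cluster led by Reln and Pdyn (97 nuclei) had 7547 CPM and one led by Crhbp, Nos1 and Chodl (38 nuclei) had 1576, a ratio of 4.79 (4.12 to 5.59). The ratios were 4.77 in library 1 and 4.84 in library 2. Each pair of clusters here and below is the highest and the lowest of its type or was chosen after the values were seen, so these ratios are descriptions.

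Nrg1, whose isoforms include secreted and membrane-anchored forms, had its highest levels in projection neurons. Striatal projection neurons had 3949 CPM (3385 in library 1 and 4160.0 in library 2) and excitatory neurons 3017 (2912 and 3112), a ratio of 1.31 (1.29 to 1.33). Inhibitory neurons had 649.7 CPM (609.8 and 686). Excitatory neurons alone held 82.8% of the Nrg1 UMIs of named nuclei, and they were also the most numerous class, with 8013 nuclei.

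By type, indirect-pathway neurons were highest at 4494 CPM (4108 and 4619), above direct-pathway neurons at 3694 (3095 and 3933) by 1.22-fold (1.18 to 1.26), the reverse of their order for Nrg3. This order did not hold for every direct-pathway cluster, as the highest of them had 4658 CPM of Nrg1 (4439.7 and 4699). Layer 6b neurons had 3682 CPM, layer 4/5 intratelencephalic neurons 3379, layer 6 corticothalamic neurons 3363 and layer 2/3 neurons 2853. Layer 5/6 near-projecting neurons, second for Nrg3, had only 1278 CPM of Nrg1 (1334 and 1234). Layer 5 extratelencephalic neurons, which project out of the telencephalon, were the lowest excitatory type at 992 (905 and 1093). Both libraries of these 2 types lay below both libraries of every other excitatory type. VIP nuclei had 885 CPM (1095 and 699), LAMP5 nuclei 815 (829 and 801), parvalbumin nuclei 595 and somatostatin nuclei 413. The highest VIP cluster (112 nuclei) had 1734 CPM (2523 and 1122). With both libraries together this was above the near-projecting and extratelencephalic neurons. Oligodendrocytes had 307, and their limit of 328 was again set from their own level. Astrocytes had 363 (interval 306 to 427), which was not distinguished from their limit of 352, scaled from the oligodendrocytes.

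The low Nrg1 level of the extratelencephalic neurons was not uniform. A cluster led by Npsr1 and St6galnac5 (73 nuclei) had 2108 CPM and one with Slco2a1 and Kcnn2 among its leading genes (135 nuclei) had 684, a ratio of 3.08 (2.77 to 3.42). In direct-pathway neurons a cluster led by Rarb and Ebf1 (278 nuclei) had 4658 CPM, against 987 in one led by Gpr149, Isl1 and Drd3 (184 nuclei), a ratio of 4.72 (4.15 to 5.39). Both ratios kept their direction in each library, at 3.71 and 3.16 for the first and 4.74 and 4.50 for the second.

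In the oligodendrocyte lineage precursors had 578 CPM of Nrg1 (504 and 618), above their limit of 301, and the differentiating stage was divided. Among differentiating oligodendrocytes, nuclei led by Gpr17, a receptor of newly committed cells, had 1523 CPM (894 in library 1 and 1718 in library 2). The other cluster, led by 9630013A20Rik and Tcf7l2, a transcription factor of newly forming oligodendrocytes, had 138 CPM (95.5 and 172). The ratio was 11.0 (6.29 to 21.1). Nrg3 in the same clusters had 1303 CPM (250.4 and 1629) and 255 CPM (287 and 229), so its difference lay in library 2. The free RNA marker Slc17a7 stood at 322 CPM in the Gpr17 nuclei and 234 in the Tcf7l2 nuclei, and the part of neuronal RNA in these differences was not tested. The groups hold 69 and 47 nuclei. Among oligodendrocytes, a cluster of 31 nuclei led by Prr5l and Neat1 had 1269 CPM of Nrg1 (855 and 1412), with 232 CPM of the inhibitory marker Gad2, while the other clusters had 189.7 to 345 CPM of Nrg1.

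Nrg2, a ligand that binds Erbb3 and Erbb4, was low, with its highest levels in neurons. Striatal projection neurons had 202 CPM (212 and 198) and inhibitory neurons, the next class, 130.3 (147 and 115), a ratio of 1.55 (1.41 to 1.70). The call was lost with doublets kept and without library 2. By type, LAMP5 interneurons led at 285 CPM (325 and 241), with 224 in indirect-pathway and 191 in direct-pathway neurons. LAMP5 and indirect-pathway values stood apart in both libraries. Precursors had 113 CPM (92.3 and 124), above their limit of 22.0 and level with layer 6 corticothalamic neurons at 113 CPM. Oligodendrocytes had 18.2, and their limit of 23.9 was set from their own level.

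Nrg4, known as a secreted signal of fat tissue, was near the floor. Its highest classes were excitatory neurons at 9.58 CPM, striatal projection neurons at 9.17 and inhibitory neurons at 9.11, with a ratio of 1.04 (0.740 to 1.51) between the upper pair, so its neuronal classes could not be ordered. The highest type was parvalbumin interneurons at 14.6 CPM (15.3 and 13.9) on 43 UMIs. Neuroblasts and differentiating oligodendrocytes held 0 UMIs, and astrocytes and microglia held 1 UMI each.

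**Figure D2:**
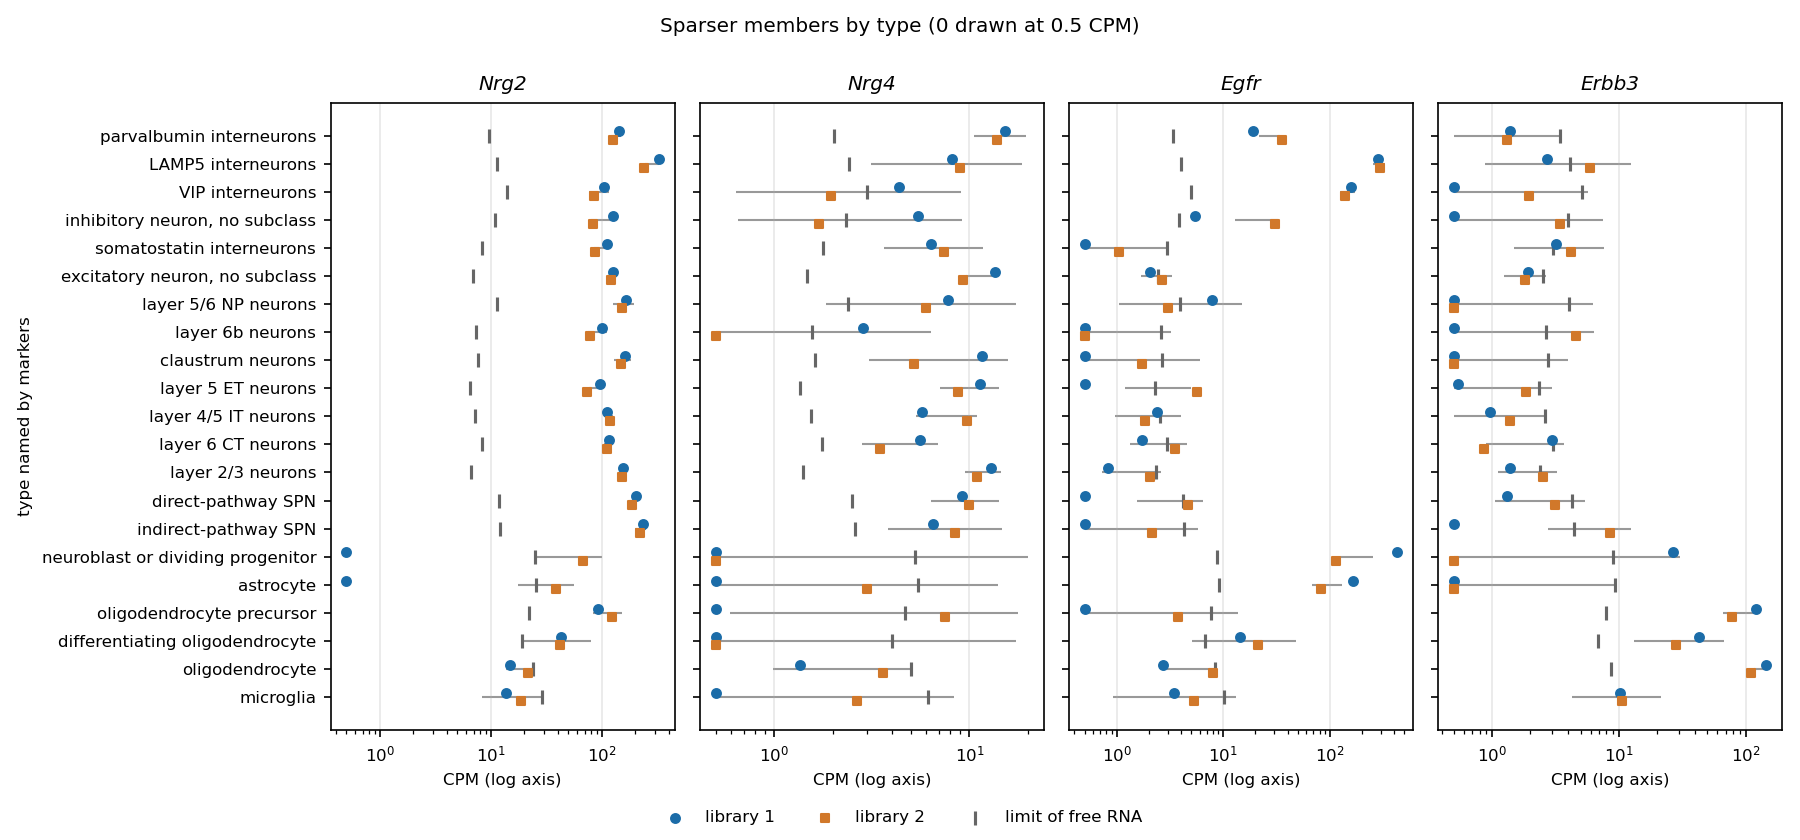
CPM (log axis, 0 drawn at 0.5) of Nrg2, Nrg4, Egfr and Erbb3 in 21 types; blue circles are library 1, orange squares library 2, grey lines the Poisson interval of both together and grey ticks the free RNA limit. Egfr was highest in LAMP5 and VIP interneurons, neuroblasts and astrocytes and Erbb3 in the oligodendrocyte lineage, while Nrg2 was spread over neurons and oligodendrocyte precursors.

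Erbb4, the main neuregulin receptor of neurons, was the receptor with the sharpest contrast. Inhibitory neurons had 5765 CPM (5436 in library 1 and 6068 in library 2), and excitatory neurons had 112 (91.5 and 132). The ratio was 51.3 (49.7 to 53.0) over both libraries, 59.4 in library 1 and 46.1 in library 2. The excitatory level lay close to its free RNA limit of 86.0 CPM. That limit was set over classes, where it was scaled from microglia. The other Erbb4 limits below were set over types unless stated. With free RNA subtracted at the class limit the ratio became 213, so it depends on how that background is set. The part of free RNA in the ratio was not tested. Differentiating oligodendrocytes were the next class at 2411 CPM (2191 and 2519), and the inhibitory level was 2.39 times theirs (2.19 to 2.61). The call of inhibitory neurons as clear highest class held in each of the other settings tried. With library 1 alone, library 2 alone or at least 1000 genes per nucleus, differentiating oligodendrocytes fell below 100 nuclei, and the log2 ratio of inhibitory neurons to them was 1.31, 1.27 and 1.02.

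The interneuron types fell into 2 levels. Parvalbumin nuclei had 9031 CPM (8317 and 9709), LAMP5 nuclei 7243 (6976 and 7536) and VIP nuclei 6521 (6671 and 6387), and both libraries of the first lay above both of the second, and these above both of the third. Somatostatin nuclei had only 1275 CPM (1222 and 1327). At an equal depth of 1000 UMIs per nucleus, 99.7% of parvalbumin, 99.3% of LAMP5 and 97.8% of VIP nuclei held an Erbb4 UMI, but 44.1% of somatostatin nuclei. In layer 2/3 neurons 5.25% held one. Over the excitatory types with a subclass the share ran from 2.22% in claustrum to 8.48% in layer 5/6 near-projecting neurons. The part of free RNA in these shares was not tested. Median depths before thinning were 3195 UMIs in parvalbumin and 4755 in layer 2/3 nuclei.

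The somatostatin type was itself divided. A cluster led by Cort and Sst, the genes of cortistatin and somatostatin (140 nuclei), had 3345 CPM of Erbb4 (3255 and 3433). The cluster led by Reln and Pdyn, which was highest for Nrg3, had 266 (224 and 335), a ratio of 12.6 (10.1 to 15.8). The other 4 somatostatin clusters of at least 30 nuclei lay between 317 and 771 CPM. By contrast the 6 parvalbumin clusters spanned 8319 to 13521 CPM and the 4 VIP clusters 5525 to 8775. Among LAMP5 nuclei, a cluster led by Reln and Ndnf had 9628 CPM and one led by Npy and Hapln1 had 5652, a ratio of 1.70 (1.61 to 1.80).

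**Figure D3:**
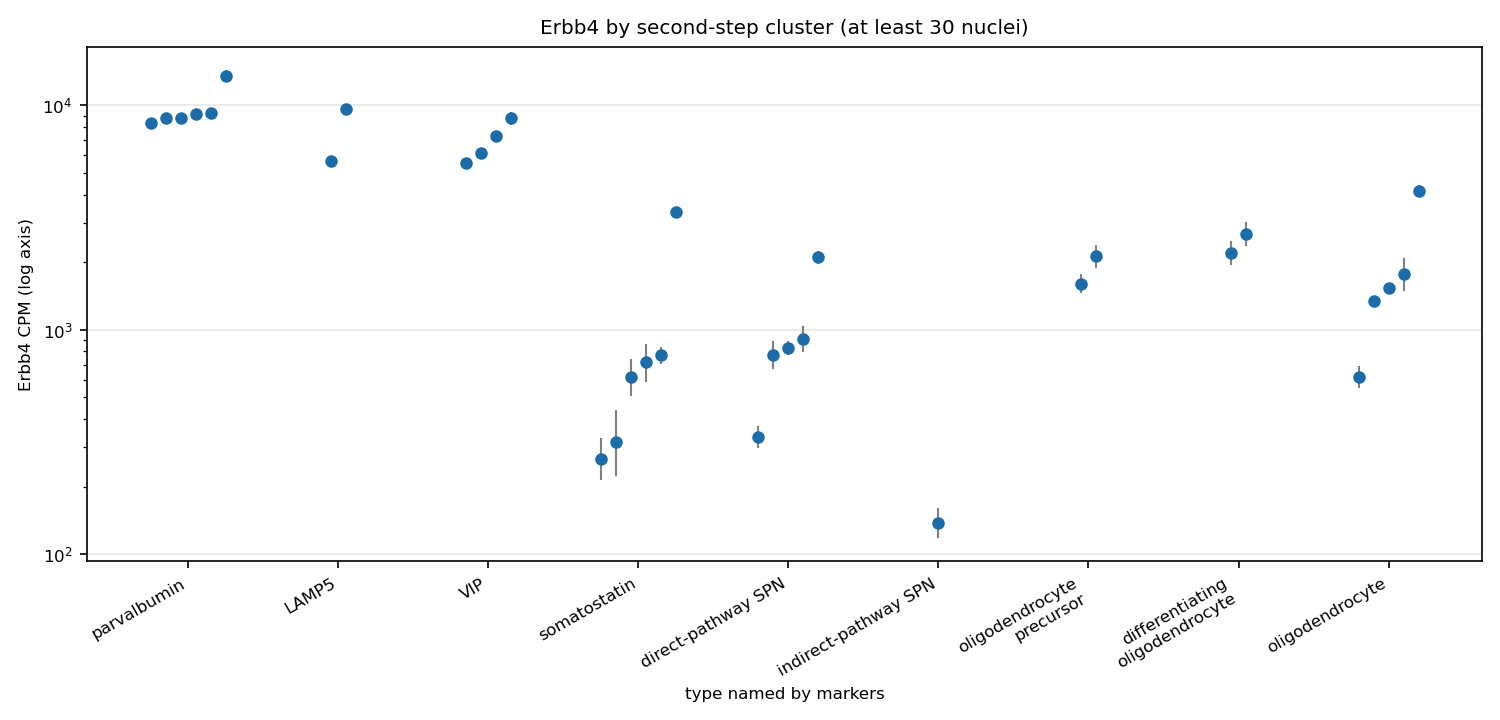
Erbb4 CPM (log axis) in each second-step cluster of at least 30 nuclei, by type; points are both libraries together and bars the Poisson interval, often smaller than the point. The parvalbumin, LAMP5 and VIP clusters all lay at 5525 CPM or more, while 1 cluster stood apart upwards in somatostatin interneurons (3345), direct-pathway neurons (2101) and oligodendrocytes (4160.2).

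Among striatal projection neurons Erbb4 was higher in the direct pathway, but unevenly between its clusters. Direct-pathway nuclei had 875 CPM (956 and 842), against 138 in indirect-pathway nuclei (255 and 99.6), whose limit was 80.4. A cluster led by Foxp2, Gpr149 and Pbx3 (178 nuclei) carried the highest level, 2101 CPM (2089.6 and 2107), against 634 in the other direct-pathway nuclei, a ratio of 3.32 (3.05 to 3.60). It was 3.18 in library 1 and 3.37 in library 2. The lowest direct-pathway cluster, led by Rarb and Ebf1 (278 nuclei), had 332 CPM (217 and 354). Its library 1 value lay below the 255 CPM of indirect-pathway nuclei. At 1000 UMIs, 41.7% of direct-pathway and 10.1% of indirect-pathway nuclei held an Erbb4 UMI.

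The oligodendrocyte lineage was another site of Erbb4. Precursors had 1767 CPM (1903 and 1695), differentiating oligodendrocytes 2411 and oligodendrocytes 1582 (1639 and 1520.0), all far above limits of 144, 125 and 157. A UMI was found at equal depth in 79.5% of precursors, 81.0% of differentiating oligodendrocytes and 68.7% of oligodendrocytes. Within oligodendrocytes, a cluster led by 9630013A20Rik, St18 and Mog (158 nuclei) had 4160.2 CPM (3808 and 4911), against 1285 in all others, a ratio of 3.24 (3.03 to 3.46). The cluster led by Hapln2 and Apod, genes of mature oligodendrocytes (539 nuclei), had 618 CPM (654 and 548). The 2 largest oligodendrocyte clusters came almost wholly from 1 library each, with 1088 of 1124 nuclei from library 1 in one and 1167 of 1210 from library 2 in the other, and had 1538 and 1343 CPM.

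Other glia were lower and less stable between libraries. Astrocytes had 441 CPM of Erbb4, but 939.7 in library 1, on 50 nuclei, and 351 in library 2, on 258 nuclei, beside a limit of 169. Microglia had 305 CPM (166 and 414), beside limits of 191 when set over types and 351 when set over classes. Neuroblasts or dividing progenitors, which are not glia, had 2281 CPM (1285 and 2533) on 166 nuclei. With both libraries together they lay above precursors and oligodendrocytes, but in library 1 they lay below both.

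**Figure D4:**
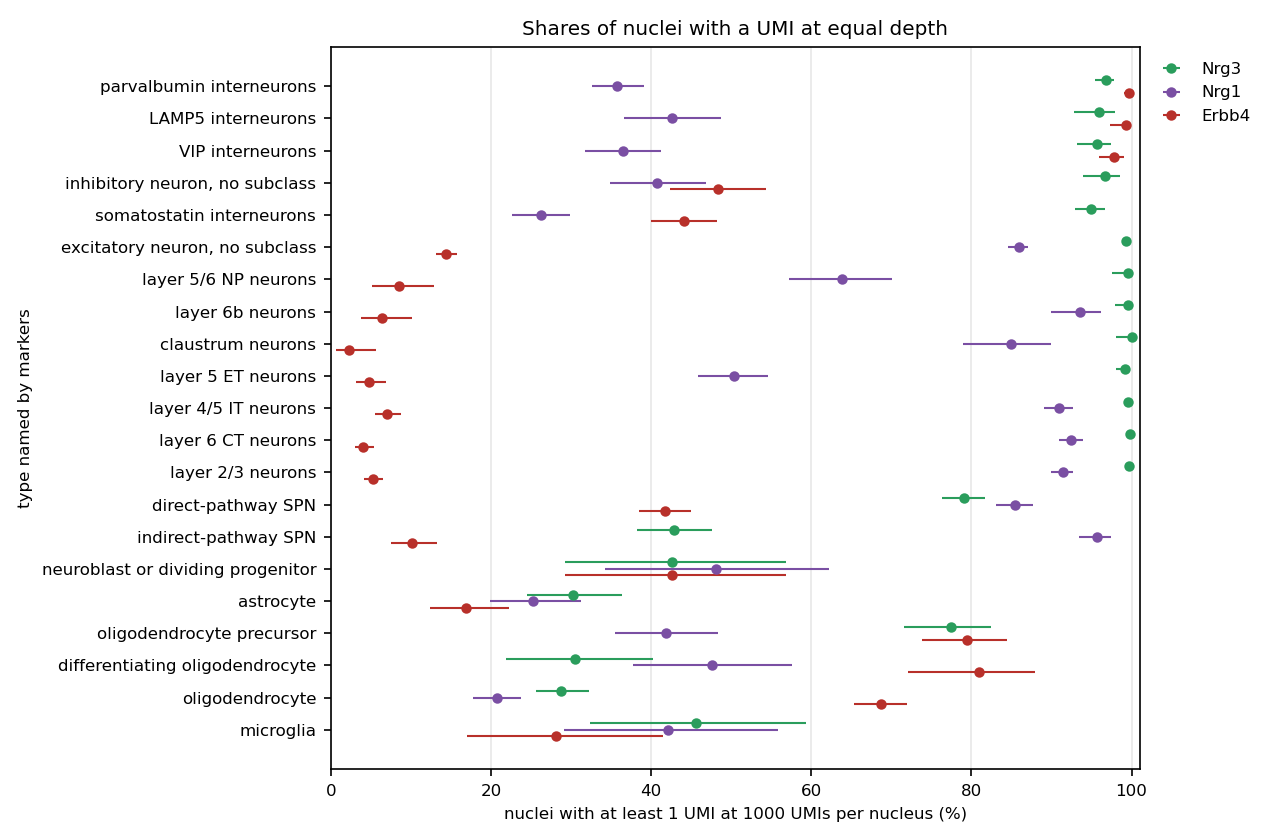
Share of nuclei (%) with at least 1 UMI of Nrg3 (green), Nrg1 (purple) and Erbb4 (red) by type, after thinning each nucleus to 1000 UMIs; bars are exact Clopper-Pearson intervals. Nrg3 was found in most nuclei of every inhibitory and excitatory type, whereas Erbb4 divided the interneurons, with 44.1% in the somatostatin type.

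Ligand and receptor were often found in the same nuclei in types where each alone was common. At 1000 UMIs per nucleus, both Nrg3 and Erbb4 were detected in 96.4% of parvalbumin, 95.2% of LAMP5 and 93.5% of VIP nuclei, and in 41.7% of somatostatin nuclei. The share was 61.9% in precursors and 5.25% in layer 2/3 neurons. Nrg1 and Erbb4 were found together in 35.7% of parvalbumin and 36.8% of direct-pathway nuclei. Taken alone at this depth, Nrg3 was found in 96.8% of parvalbumin nuclei, 77.4% of precursors and 99.7% of layer 2/3 neurons. Erbb4 alone was found in 99.7%, 79.5% and 5.25% of them. Nrg1 alone was found in 35.8% of parvalbumin and 85.5% of direct-pathway nuclei. Whether ligand and receptor met in 1 nucleus more often than these separate shares give was not tested. Detection of both in 1 nucleus shows RNA only.

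Across the 21 types, Pearson's r of log2(CPM + 10) with Erbb4 was -0.61 for Nrg1 and -0.27 for Nrg3. Types share libraries and free RNA, so these are descriptions without a test. The extremes show the contrast: layer 6b neurons had 9140.5 CPM of Nrg3 and 112 of Erbb4 (41.1 in library 1 and 226 in library 2), and oligodendrocytes 415 of Nrg3 and 1582 of Erbb4. Parvalbumin, LAMP5 and VIP interneurons had high levels of both.

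**Figure D5:**
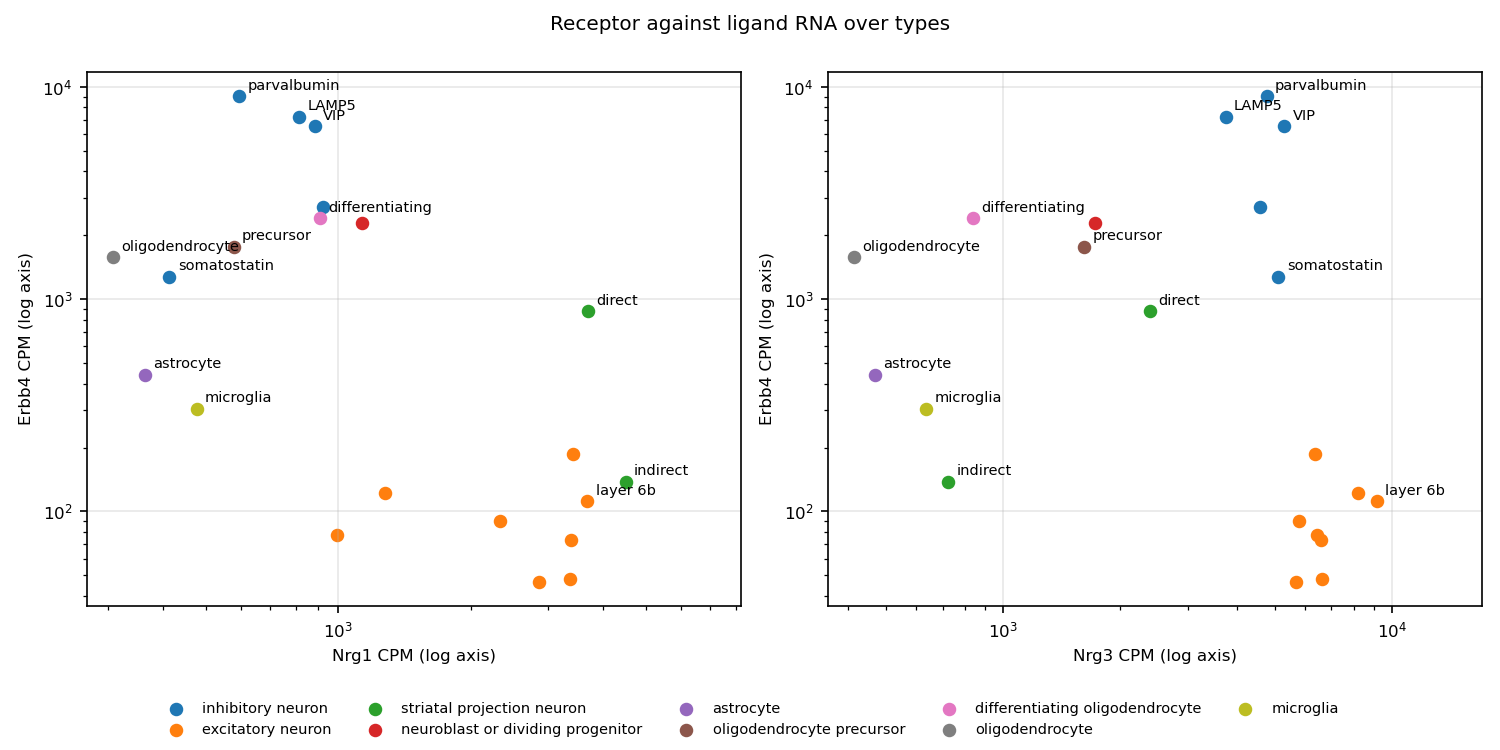
Erbb4 CPM against Nrg1 CPM (left) and Nrg3 CPM (right), all axes logarithmic, 1 point for each of 21 types, coloured by class. With both libraries together, excitatory types sat at 186 CPM of Erbb4 or less, and parvalbumin, LAMP5 and VIP interneurons combined 3743 to 5289 CPM of Nrg3 with 6521 to 9031 of Erbb4.

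Erbb3, the receptor that pairs with Erbb2 in myelin-forming glia, was confined above its free RNA limit to 3 types of the oligodendrocyte lineage among the 21. Oligodendrocytes had 128 CPM (146 and 110.2), precursors 93.1 (121 and 78.6) and differentiating oligodendrocytes 33.0 (43.0 and 28.1), the last on 7 UMIs. Oligodendrocytes exceeded precursors by 1.38-fold (0.986 to 1.98), an interval that includes 1, and they exceeded differentiating oligodendrocytes by 3.90-fold (1.87 to 9.76). Oligodendrocytes became the clear highest class at Leiden resolution 2, and with at least 1000 genes per nucleus, where the 90 precursors left were too few to enter. Between the types of this lineage Erbb4 ran the other way, with its highest value in the differentiating stage. Between its second-step clusters of at least 30 nuclei, the same oligodendrocyte cluster was highest for Erbb4 (4160.2 CPM) and for Erbb3 (251 CPM).

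At equal depth 12.4% of 760 oligodendrocytes and 7.53% of 239 precursors held an Erbb3 UMI. None of 866 parvalbumin nuclei did, which by a limit of 3 counts allows a share with a UMI of up to 0.346% at that depth, and 4 of 867 held one before thinning. Median depths were 1227 UMIs in these oligodendrocytes, 1256 in the precursors and 3195 in the parvalbumin nuclei. Both Erbb3 and Erbb4 were found in 9.34% of oligodendrocytes and 7.11% of precursors. The oligodendrocyte cluster with the highest Erbb4 was also higher for Erbb3, with 251 CPM against 114 in other oligodendrocytes, a ratio of 2.19 (1.67 to 2.84).

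Egfr, the receptor for EGF and related ligands, was sparse, and its signal came from a few cell types. LAMP5 interneurons had 289 CPM (284 in library 1 and 295 in library 2), neuroblasts or dividing progenitors 179 (428 and 115), VIP interneurons 147 (157 and 138) and astrocytes 95.8 (165 and 83.3). The order of LAMP5 interneurons and neuroblasts differed between libraries, at a ratio of 0.664 in library 1 and 2.55 in library 2. LAMP5 exceeded VIP nuclei 1.96-fold (1.58 to 2.45). Somatostatin nuclei held 1 UMI in all, or 0.530 CPM. Fibroblasts, a group of only 62 nuclei and below the minimum of 100, had 354 CPM on 28 UMIs.

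The class call of neuroblasts over astrocytes, 1.87-fold (1.13 to 3.06), rested on 33 UMIs, with 37 nuclei in library 1 and 129 in library 2. With library 1 alone, or with at least 1000 genes per nucleus, inhibitory neurons were called instead. In the first case neuroblasts and astrocytes, still higher at 428 and 165 CPM, had 37 and 50 nuclei and fell below the minimum of 100, and in the second neither class was named. With library 2 alone Egfr had no clear highest class. At equal depth 21.5% of LAMP5, 24.1% of neuroblast and 12.8% of VIP nuclei held a UMI. The neuroblast share rested on 54 nuclei (13.5 to 37.6%), an interval that includes the LAMP5 share. Before thinning it was 12.7% of all 166 neuroblast nuclei. At equal depth 0 of 585 somatostatin nuclei held a UMI, which by the same limit of 3 counts allows up to 0.513%. Median depths were 2594.5 UMIs in LAMP5, 1175 in neuroblast, 2101.5 in VIP and 3120 in somatostatin nuclei.

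In parvalbumin interneurons the Egfr signal came from 1 cluster. The type as a whole had 27.5 CPM (18.8 and 35.7). A cluster led by Il1rapl2, Nxph1 and Pde3a (75 nuclei) had 351 CPM (389.8 and 335), and the other 792 nuclei had 2.56, a ratio of 137 (63.5 to 354). Pvalb stood at 90.2 CPM in that cluster, within the range of 57.7 to 138 CPM in the other parvalbumin clusters. A microglia cluster had 93.8 CPM of Pvalb, so this level alone does not mark the type. Cort was at 14.2 CPM in the Egfr-rich cluster, below the 46.2 to 128 of the others. Tac1 was at 80.7 CPM, beside 69.3 to 394 in the others.

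Erbb2, the partner receptor without a ligand of its own, was close to undetected. It had 29 UMIs in all kept nuclei, 7 in library 1 and 22 in library 2. Astrocytes with 4 UMIs, or 10.1 CPM (2.75 to 25.8), were the only type above the free RNA limit of 2.16. No UMI of Erbb2 was found in precursors, somatostatin, VIP or layer 6b nuclei, which at this depth does not exclude a low level. At its 3′ end the gene overlaps Mien1 on the other strand, which had 2211 UMIs where Erbb2 had 23 in named nuclei.

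The genes most like each member across the 21 types were sought among 10562 genes with at least 500 UMIs. For Nrg3 they were Gm20642 (r = 0.983), Nrg3os (0.977) and Agbl4 (0.940). The first pair are antisense genes within Nrg3, with 7.62% and 7.36% as many UMIs as Nrg3, and the strand used in counting is not given in the sources used here, so their reads and those of Nrg3 cannot be told apart. For Nrg1 they were Zfyve28 (0.937), Gm26652 and Celf2, and for Nrg2 the glutamate receptor gene Grm5 (0.929), Fgf14 and Tmem191c. For Erbb4 they included Afap1 (0.908) and Prrc2c, and for Erbb3 they were Tm7sf3 (0.942), Ninj2 and Sox10 (0.918), the last a transcription factor of the oligodendrocyte lineage. Egfr was most like Ttll4 (0.838), Unc119 and Ostm1, and Nrg4 most like Gm32250 (0.832), Gm10419 and Ccdc148. Erbb2 had too few UMIs. Of the member pairs, Nrg2 and Nrg4 (0.70) and Egfr and Erbb4 (0.66) were most alike.

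The genes that process, carry or end this signal were described from lists of 53 further pathway genes. Of 47 tested, 11 (23.4%) had a clear highest class, beside 18.6% of all genes, and their median ratio of highest to next class was 1.30, beside 1.29 over all genes. All 11 were led by glia. The leading classes were microglia, oligodendrocytes, differentiating oligodendrocytes and precursors, which were the clear highest for 5.18%, 2.52%, 1.35% and 1.08% of all genes. Neither value sets the lists apart from other genes.

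Of 7 tested sheddases, the proteases that release such ligands, 4 had a clear highest class. Adam10 had 358 CPM in microglia (428 and 304) and 208 in oligodendrocytes, and Adam17 had 131 CPM in microglia (162 and 107) and 48.3 in oligodendrocytes. Adam19 led in oligodendrocytes (51.5 CPM) and Bace2 in differentiating oligodendrocytes (33.0, on few UMIs). Bace1, the protease best known for cutting Nrg1, had 98.9 CPM in differentiating oligodendrocytes and 69.3 in oligodendrocytes, a ratio of 1.43 (0.864 to 2.24).

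Adaptors and effectors had a clear highest class for 2 of 19, Gab2 in microglia (622 CPM) and Pik3r3, a regulatory subunit of PI3 kinase, in differentiating oligodendrocytes (151 CPM). Inhibitors and turnover genes had 3 of 12. The ubiquitin ligase gene Cbl led in microglia (161 CPM), the ubiquitin ligase gene Itch in oligodendrocytes (516 CPM), and the receptor phosphatase gene Ptprz1 in precursors, with 3132 CPM there against 1765 in astrocytes. Receptor scaffolds had 2 of 6, both in oligodendrocytes. Magi2 had 4560.5 CPM there and 2219.6 in inhibitory neurons, and Erbin, named for its binding to Erbb2, had 775 there and 306 in differentiating oligodendrocytes. None of the 3 other EGF family ligands tested was called. Tgfa had 123 CPM and Egf 19.6 CPM in precursors, and Hbegf had 37.8 CPM in astrocytes, each the highest class of its gene.

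Differences between the libraries were looked at in 37 pairs of a member and a class with at least 50 UMIs, taking a ratio of at least 1.5-fold either way with an interval that excludes 1. Library 1 was higher than library 2 in 1 pair and lower in 9, beside 3.71% and 9.12% of 51734 pairs of any gene and a class, and 9 of these 10 were in glia or neuroblasts. The exception was Egfr in excitatory neurons, with 1.56 CPM in library 1 and 2.70 in library 2, where 5.89% of all genes were lower in library 1. Nrg1 was lower in library 1 in oligodendrocytes (227 and 392 CPM), microglia (276 and 630.0), astrocytes (165 and 399), differentiating oligodendrocytes (415 and 1151) and neuroblasts (589 and 1270.1). The share of all genes lower in library 1 was 15.5%, 17.3%, 11.2%, 12.5% and 14.6% in these classes in turn. Nrg1 did not exceed its free RNA limit in astrocytes, nor in oligodendrocytes, whose own level set that limit. Nrg3 in differentiating oligodendrocytes was lower too (272 and 1116 CPM), as was Erbb4 in microglia and neuroblasts. Erbb4 in astrocytes was the pair higher in library 1, 2.68-fold (1.92 to 3.70), where 5.28% of all genes were higher. At the level of types, 16 of 85 pairs were called, 3 higher in library 1 and 13 lower, beside 3.38% and 7.88% of 118419 pairs of any gene and a type, and 7 of the 16 were in neurons. Among these 7, Erbb4 was lower in library 1 in layer 6b neurons (41.1 and 226 CPM) and claustrum neurons (26.2 and 128) and higher in indirect-pathway neurons (255 and 99.6), and Nrg1 was higher in VIP interneurons (1095 and 699). Inhibitory neurons without a subclass were lower in library 1 for Nrg1 (492 and 1194) and Erbb4 (1920.2 and 3195), as were parvalbumin interneurons for Egfr. The group without a subclass joins unlike clusters. One with 5 of 42 nuclei from library 1 had 5130.2 CPM of Erbb4 and 1941 of Nrg1. Another with 78 of 145 nuclei from library 1 had 289.6 and 609.5. Which library is METH is unknown, and the parts of free RNA and of the mix of clusters in these differences were not tested.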

How the data were processed

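Per the labels' protocols, nuclei came from an iodixanol gradient and went through 10x 3′ chemistry and paired-end Illumina sequencing. Cell Ranger 1.3.0, Seurat 3.1.4 and mm10 are given in the submitters' processing notes, while per the file headers the matrix was written by software version 3.1.0. In the deposited matrix each value is a whole-number count of UMIs, and no filter on barcodes is stated. The members and gene lists were chosen with earlier results of these data known. Nuclei under 500 genes were left out. Scrublet, run on each library in Scanpy 1.11.5, marked doublets, which were removed. Counts scaled to 10000 per nucleus, 3000 variable genes without the members, 50 principal components, 20 neighbours and Leiden resolution 1 (leidenalg 0.10.2) gave 27 clusters. Each was clustered again at resolution 0.5, which gave 101 second-step clusters, 16 of them unnamed. A name needed at least 3 markers at 20 CPM and a score 1.5 times the next. Details of naming, the second step, the limit on free RNA and the pairs of second-step clusters were chosen after seeing the data.

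UMIs were summed per group to CPM, with exact Poisson, Clopper-Pearson and conditional ratio intervals (SciPy 1.17.1). There are no p-values, since the matrix is 1 pooled sample. The free RNA limit of a gene is the Slc17a7 CPM of a group (in excitatory groups, that of myelin genes times a fixed ratio) times the lowest ratio of the gene (upper Poisson bound) to Slc17a7 over groups of at least 200000 UMIs. It is an upper limit, and the group with the lowest ratio sets it and so cannot exceed it. Thinning to 1000 UMIs left out shallower nuclei, 827 of 884 in microglia. The named genes are the 8 members, each listed pathway gene with a clear highest class, and the 3 genes most like each member with at least 200 UMIs, of which 1 is not reported here. Bace1, Tgfa, Egf, Hbegf and the leading genes of second-step clusters were named after their values were seen. The calling rule, without its free RNA condition, and the intervals were tested on simulated counts with Poisson error only. Gene positions are those of GENCODE on mm10.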

Additional observations from a re-analysis of the deposited data

How the results depend on the processing

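No paired analysis was possible because each group is 1 library and the barcode numbers are not tied to groups. With no replicates, changes are judged against counting error, and depth limits Nrg4, Erbb2, Erbb3 and Egfr most. Erbb4 kept inhibitory neurons as its clear highest class in all 10 alternatives. Only 4 classes reached 100 nuclei with at least 1000 genes, 6 without library 2 and 8 without library 1, against 9, so calls there come from fewer classes. The number of members with a clear highest class, 3 of 7, became 5 at a fold of at least 1 and 1 at a fold of at least 2, and the number with a clear highest type, 0, became 4 at a fold of at least 1, 2 with at least 1000 genes per nucleus (Egfr in LAMP5 interneurons and Erbb3 in oligodendrocytes), 1 at Leiden resolution 2, and 1 with either library alone. Of other pathway genes, 7 in place of 11 had a clear class at a fold of at least 2, and 5 in place of 9 a clear type, which became 16 without library 2. The Erbb4 ratio of inhibitory to excitatory neurons, 51.3, was 46.9 with at least 1000 genes, 36.5 with doublets kept, 46.3 at Leiden resolution 2, 59.4 without library 2, 46.1 without library 1 and 213 after subtracting the free RNA limit. The share of inhibitory neurons with an Erbb4 UMI, 80.0% at 1000 UMIs, was 84.5% at 2000 UMIs and 88.4% unthinned. The cause of these changes was not tested, except that higher folds and depth move counts and shares by construction. Leaving out the Egfr-rich cluster, an alternative chosen after seeing the data, gave 2.56 CPM of Egfr in parvalbumin interneurons in place of 27.5. Log2 ratios of the highest class over the next stayed positive for every member but Nrg4, which ran between -0.15 and 0.35 over 8 alternatives. Egfr in neuroblasts has no value at 2000 UMIs because too few nuclei were deep enough.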

Other observations

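Some nuclei without a name also carried the receptor. A cluster led by Chst9, Foxp2, Pbx3 and Tshz1 (90 nuclei) had 6443 CPM of Erbb4 (7114 in library 1 and 6065 in library 2), beside 6521 in VIP interneurons, with 2753 CPM of Nrg3 and 0 UMIs of Egfr. A cluster led by Trh, Lgr5 and Pde1c (97 nuclei) had 2635 CPM of Erbb4 (2756 and 2579) and 94.8 CPM of Egfr. Another, led by Zfhx3, Trpm3 and Baiap3 (290 nuclei), had 1252 CPM of Erbb4 (1200.4 and 1275) and 4203 of Nrg3.

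Among excitatory neurons without a subclass, 33 nuclei led by Abi3bp, Bmpr1b and Tll1 had 1515 CPM of Erbb4 (1092 in library 1 and 2127 in library 2), while a neighbouring cluster led by Tfap2d and Unc13c (37 nuclei) had 27.4. Gad2, a marker of inhibitory neurons, was at 24.8 CPM in the 33 nuclei and 18.3 in the 37. Cholinergic nuclei, 52 in all, had 3228 CPM of Nrg1, 4811 of Nrg3 and 331 of Erbb4.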
